A study of Mus musculus with 11 samples.

Results

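Costimulation and checkpoint molecules were read as 10 named genes of the 26921 genes in the count files of 11 single-cell RNA-seq libraries of mouse cortex. The genes were listed by name and not by their level: Cd80, Cd86, Cd40, Cd274 and Pdcd1lg2 on the side of the antigen-presenting or barrier cell, read in endothelial cells (EC), microglia (Micro), perivascular macrophages (PVM), other macrophages (Mac) and dendritic cells (DC), and Pdcd1, Ctla4, Cd28, Icos and Cd40lg on the side of the T cell. All 10 were present in every count file. The animals were C57BL/6 mice, described as female unless stated otherwise. There were 4 Juvenile libraries (postnatal day 10), 3 Adult libraries (7 to 11 weeks) and 2 Aged libraries (18 months), all with no treatment, and 2 libraries of mice with experimental autoimmune encephalomyelitis (EAE) taken at the peak of disease (females, 7 to 11 weeks at immunisation). EAE is a model of central nervous system autoimmunity, induced here by the myelin peptide MOG35–55 in Complete Freund's Adjuvant with pertussis toxin. The Adult mice received neither adjuvant nor toxin, so an effect of disease and one of adjuvant or toxin cannot be told apart. Each library pooled cortex of 6 mice (Juvenile, Adult) or 3 mice (Aged, EAE), digested after the meninges had been taken off and then cleared of myelin. Nothing in the labels says that the pools of a group were separate animals, so the p-values below measure the spread between libraries, which may be technical.

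A T cell that has bound its antigen also reads a second set of signals from the cell that presents it. CD80 and CD86 bind CD28, which promotes activation, and bind CTLA-4, which restrains it; ICOS is a further activating receptor of the CD28 family. PD-L1 (encoded by Cd274) and PD-L2 (Pdcd1lg2) bind PD-1 (Pdcd1), which inhibits the T cell. CD40 is a TNF receptor family member on antigen-presenting cells and can be carried by endothelium, and its ligand CD40L (Cd40lg) is made mainly by activated CD4 T cells. In the brain the dendritic cell and the border macrophage are the classical presenting cells, while microglia and endothelium take up parts of this machinery under inflammation. Interferon gamma is a known inducer of PD-L1.

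Several members lie next to each other in the genome (GRCm38, GENCODE annotation). Cd274 was annotated at chr19:29367455-29388095 on the plus strand, and Pdcd1lg2 lay 22823 bases after it at chr19:29410919-29471161, also on the plus strand. Cd28 (chr1:60716800-60773359, plus strand), Ctla4 (chr1:60887000-60915832, plus) and Icos (chr1:60977927-61000320, plus) formed another run, with 113640 bases between the first pair and 62094 between the second. Pdcd1 was on the same chromosome at chr1:94038305-94052553 (minus strand). Cd86 (chr16:36603869-36666081, minus) and Cd80 (chr16:38455561-38496335, plus) shared chromosome 16. Cd40 was at chr2:165055627-165072948 (plus) and Cd40lg at chrX:57212143-57224042 (plus).

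The promoters of Cd274 and Pdcd1lg2 are shown because the levels of these neighbours differed widely between the same cells. That of Ctla4 is shown because it was the receptor called higher in T cells of EAE than of Adult. Each runs from 250 bases before to 50 bases after the RefSeq start site on GRCm38.p6, 5′ to 3′ on the gene's strand, with CG pairs in capitals. The windows are chr19:29367188-29367487 for Cd274, chr19:29410669-29410968 for Pdcd1lg2 and chr1:60908775-60909074 for Ctla4, all on the plus strand.
Cd274: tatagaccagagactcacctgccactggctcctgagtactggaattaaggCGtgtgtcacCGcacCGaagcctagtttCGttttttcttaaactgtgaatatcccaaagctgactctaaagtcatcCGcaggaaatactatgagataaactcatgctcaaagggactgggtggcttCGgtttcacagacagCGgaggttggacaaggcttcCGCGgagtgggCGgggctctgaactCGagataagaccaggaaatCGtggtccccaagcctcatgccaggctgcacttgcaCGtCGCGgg
Pdcd1lg2: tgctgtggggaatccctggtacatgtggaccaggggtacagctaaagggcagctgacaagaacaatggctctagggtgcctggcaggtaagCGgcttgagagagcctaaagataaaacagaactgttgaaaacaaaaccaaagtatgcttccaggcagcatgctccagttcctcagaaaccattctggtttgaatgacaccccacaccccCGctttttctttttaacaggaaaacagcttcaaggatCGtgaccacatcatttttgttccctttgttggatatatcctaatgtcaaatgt
Ctla4: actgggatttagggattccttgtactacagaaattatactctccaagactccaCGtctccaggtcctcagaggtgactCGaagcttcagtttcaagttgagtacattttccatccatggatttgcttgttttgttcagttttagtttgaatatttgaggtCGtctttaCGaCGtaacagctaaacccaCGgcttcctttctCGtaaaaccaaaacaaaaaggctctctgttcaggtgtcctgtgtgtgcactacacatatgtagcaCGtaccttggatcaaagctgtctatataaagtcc
The Cd274 window held 15 CG pairs, the Pdcd1lg2 window 3 and the Ctla4 window 8, against a median of 7 over 32851 RefSeq promoter windows of the same length (quartiles 3 and 20). Of all windows, 67.0% held at most as many CG pairs as Cd274, 31.4% as Pdcd1lg2 and 54.2% as Ctla4. Of the 10 members, 5 had an entry in the promoter table (these 3, Cd80 and Pdcd1), and their windows held no match on either strand to TTCNNNGAA (a motif of the gamma-activated site type, in 8.3% of all windows), to GAAA, NN and GAAA in a row (an IRF-type motif, in 3.44%) or to GGG, NNN and TTCC in a row (a kappaB-like motif, in 5.56%). These exact letters are therefore absent from these windows, which says nothing of sites elsewhere or of other forms of the motifs. The kappaB-like letters searched end in TTCC, so related letters such as the GGGGAATCCC near the start of the Pdcd1lg2 window were not counted.

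The libraries held 54646 barcodes, of which 50625 passed the filters, with 15755504 to 34326349 unique molecular identifiers (UMIs) per library. A level is given below in CPM, the UMIs of a gene scaled to 1000000 UMIs summed over all cells of a type in a library, and its counting error covers sampling of UMIs only. Cell types were rebuilt by clustering and named from markers, so each name means cells like that type: EC, Micro and PVM clusters each had all 8 of their markers detected, Mac clusters 6 to 8, T cell clusters 7, and the conventional type 2 (cDC2) and Ccr7-positive dendritic cell clusters 8. The EC sums held 509 to 3533 cells per library, the Micro sums 269 to 1433 and the PVM sums 39 to 219. Adult libraries 2 and 3 differed from each other by about the sampling noise (mean squared z 1.22 in EC and 1.02 in Micro, where 1 is sampling noise alone), and were counted as 1 replicate. Adult library 1 stood apart from them (8.85 and 9.09 in EC), and 739 of its 834 ECs lay in a cluster led by Enpp2, Ptgds and Ttr, which are choroid plexus genes, with the haemoglobin genes Hbb-bs, Hba-a1 and Hba-a2 among its first 10. In effect the Adult group therefore rested on 2 units. Juvenile libraries 1 and 2 (1.06 in EC) and 3 and 4 (1.18) also differed little within each pair, whereas libraries of different pairs gave 5.02 to 5.95 in EC. The 4 Juvenile libraries were kept as separate replicates and, as an alternative, summed in those pairs. The Aged pair (1.68 in EC and 1.25 in Micro) and the EAE pair (1.46 and 1.23) were also close to sampling noise, so the spread within these groups, on which each comparison rests, is not far above that of counting. Libraries shared at most 1.53% of their barcodes with another.

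Which members passed the test between groups depended on the cell type. Tests were run on the summed UMIs with edgeR's quasi-likelihood method and Benjamini-Hochberg adjustment over the whole set of genes left by edgeR's expression filter, and a gene is called at an adjusted p under 0.05. In ECs 5 members passed the filter, and 4 of them were called between EAE and Adult (Cd274, Cd28 and Icos higher, Cd40 lower), where 27.2% of all genes tested were called. Cd28 and Icos had 4 and 7 UMIs in all Adult ECs and passed the filter through their EAE sums, so their part of this count is not read against that share. By edgeR none of the 5 was called between Aged and Adult (5.11% of all genes), with 3 of them at an unadjusted p under 0.05 and 0 called by DESeq2, and 2 were called between Juvenile and Adult (Cd274 and Cd40, 42.9% of all genes). In Micro 6 members passed the filter, with 3 called in EAE (Cd274, Cd40 and Pdcd1 higher, 26.2% of all genes), none in Aged (1.98%) with 3 at an unadjusted p under 0.05 and 0 called by DESeq2, and 2 in Juvenile (Cd274 and Icos, 24.1%). In PVMs 5 passed the filter, with 2 called in EAE (Cd40 higher and Cd28 lower, 14.9% of all genes), 1 in Aged (Cd28, 1.26%) and 2 in Juvenile (Cd28 and Cd274, 6.09%). Pdcd1 (2 UMIs in all Adult Micro), Cd40 and Icos of Micro passed the filter through the groups where they were higher. So did Cd40 and Cd274 of PVMs, and the part of these genes in the counts is not read against those shares. Members that did not pass the filter were those with few UMIs, and the counts of the ligand-side genes among them are given below.

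Cd274, which encodes the inhibitory ligand PD-L1, rose in ECs and Micro of EAE, and among the EC groups it was lowest in Juvenile mice. EC levels were 1.62, 0.397, 0.426 and 0.656 CPM in the Juvenile libraries, 10.7, 11.7 and 13.5 CPM in the Adult libraries, 18.9 and 16.1 CPM in the Aged libraries and 56.9 and 65.9 CPM in the EAE libraries. The 4 groups did not overlap, in the order Juvenile, Adult, Aged, EAE. The Adult mean was 11.7 ± 1.35 CPM (SD, n = 2) and the EAE mean 61.4 ± 6.40 CPM (SD, n = 2), a log2 fold change of 2.55 ± 0.20 (SE, edgeR adjusted p = 3.61e-06). Juvenile ECs, at a mean of 0.774 CPM over the 4 libraries, were lower than Adult ECs by a log2 fold change of -3.91 ± 0.30 (SE, edgeR adjusted p = 8.75e-07). With each like pair of Juvenile libraries summed as 1 replicate the call was kept (-3.90 ± 0.27, adjusted p = 7.61e-06). The step from Adult to Aged (17.5 ± 2.03 CPM, SD, n = 2) was not called, at a log2 fold change of 0.55 ± 0.21 (SE, edgeR adjusted p = 0.153). Aged and Adult are therefore neighbours in the order that were not separated by the test. Most EAE ECs lay in clusters led by Fmo2 and Xdh (3012 cells, with 2 Adult cells), by Ctla2a and Plaur (1701, with 1) and by Cxcl9 and Igtp (858, with 0), so the EAE and Adult levels are those of different clusters. In the clustering of all cells, Juvenile ECs lay mostly in clusters led by Aplnr and Apln (2305 cells, with 10 Adult cells) and by Fbln5 and Egfl8 (511, with 2). A cluster with the cell cycle genes Birc5 and Cdc20 held 312 Juvenile and 15 Adult cells. The largest EC cluster, led by Cxcl12 and Car4, held 3284 Adult and 16 Juvenile cells. Juvenile and Adult levels are therefore also those of different clusters. The part of this in the EC differences of Cd274, and of Cd40 below, was not tested.

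Micro and PVMs were also read for Cd274. Micro levels were 3.74, 2.53, 4.53 and 3.19 CPM in Juvenile, 11.7, 1.69 and 16.1 CPM in Adult, 16.6 and 16.3 CPM in Aged and 62.3 and 70.0 CPM in EAE. The EAE libraries were above all others, and the Adult libraries spread widely, with Adult 2 below the Juvenile values. The rise in EAE was 2.84 ± 0.22 on the log2 scale (SE, edgeR adjusted p = 3.68e-07), and Juvenile Micro were lower than Adult Micro by a log2 fold change of -1.64 ± 0.32 (SE, edgeR adjusted p = 0.00177). EAE Micro lay mostly in clusters led by Niacr1 and Cd300lf (1542 cells) and by H2-Aa and Cd74 (553), with 0 Adult cells in each, and Adult Micro mostly in clusters led by Lrba and Slc2a5 (432) and by Enpp2 and Ptgds (347), with 1 EAE cell in each. The part of this in the Micro differences was not tested. PVM levels were 0 to 1.87 CPM in Juvenile, 0, 7.14 and 12.3 CPM in Adult, 4.92 and 5.03 CPM in Aged and 22.7 and 19.9 CPM in EAE. Adult library 1 held 39 PVMs and 0 UMIs of Cd274, which at its depth allows up to 22.2 CPM, so its level and those of EAE are not separated by counting error. The EAE difference in PVMs was 1.47 ± 0.61 on the log2 scale and was not called (edgeR adjusted p = 0.115). In Juvenile PVMs the gene had 1 UMI in all, against 11 in Adult, a ratio of Adult to Juvenile levels of 15.9 (95% counting interval 2.31 to 683), and its call (edgeR adjusted p = 0.0490) was kept under 5 of 19 settings of the processing. The difference changed sign without Adult libraries 2 and 3, which held all 11 Adult UMIs.

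The share of cells with a Cd274 UMI was compared after thinning each cell to 1000 UMIs. In ECs it was 1.38%, 1.02% and 1.25% in the Adult libraries and 4.31% and 5.38% in the EAE libraries. Epithelial cells of the choroid plexus, taken as cells that should carry little of the gene, held it in 0.179%, 0.234% and 0.117% of Adult cells and in 0% and 0.414% of EAE cells. Their median depth was far higher (11620 and 10195 UMIs in the EAE libraries, against 2339 and 2394 in ECs), and their unthinned level was 3.44 and 4.22 CPM in EAE. The EC share was thus above this background in all 5 libraries. In Micro the thinned share was 1.09%, 0% and 2.28% in Adult and 5.96% and 5.78% in EAE.

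**Figure D1:**
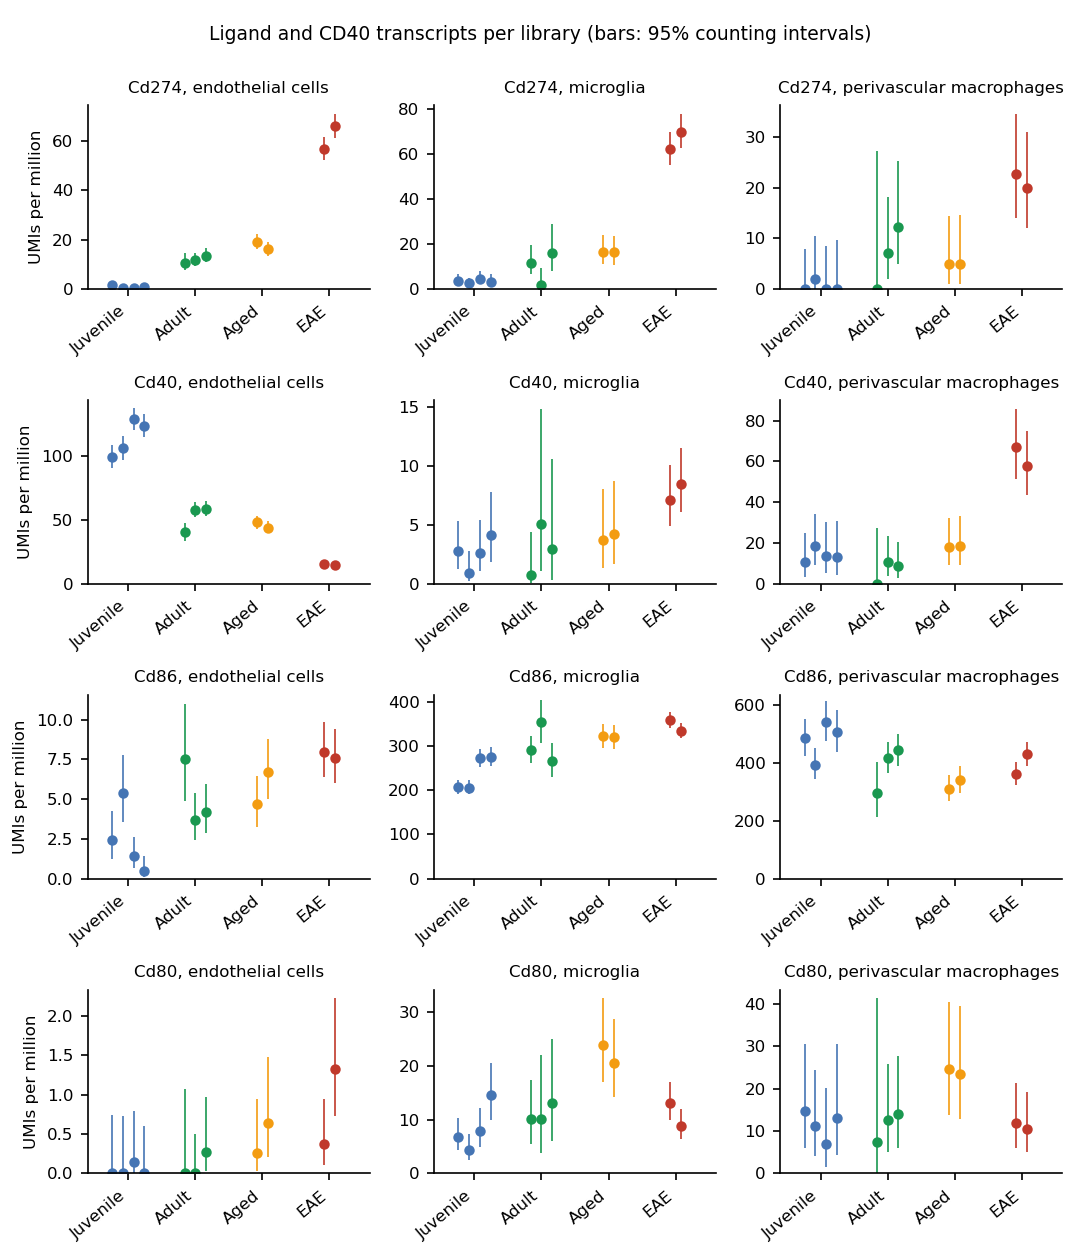
Levels of Cd274, Cd40, Cd86 and Cd80 in CPM (scaled UMIs of the summed cells) in EC, Micro and PVM, with 1 point per library by group and bars for the 95% counting interval. Cd274 in ECs stands lowest in the Juvenile libraries and highest in the EAE libraries (56.9 and 65.9 CPM), while Cd40 in ECs runs the other way (99.4 to 129 CPM in Juvenile, 15.8 and 14.7 CPM in EAE).

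Cd40, the receptor through which CD40L acts on presenting cells and endothelium, moved in opposite directions in ECs and PVMs. EC levels were 99.4, 106, 129 and 124 CPM in Juvenile, 40.2, 57.9 and 58.7 CPM in Adult, 48.0 and 44.1 CPM in Aged and 15.8 and 14.7 CPM in EAE. The Juvenile libraries were above all others and the EAE libraries below all others, while Adult and Aged overlapped. EC Cd40 fell in EAE from 49.2 ± 12.8 CPM (SD, n = 2) to 15.3 ± 0.763 CPM (SD, n = 2), a log2 fold change of -1.53 ± 0.20 (SE, edgeR adjusted p = 0.000234), and was higher in Juvenile by 1.27 ± 0.17 (SE, edgeR adjusted p = 0.000103). The thinned share of ECs with a Cd40 UMI was 3.51%, 5.41% and 5.80% in the Adult libraries and 1.75% and 1.90% in the EAE libraries, against 0.269% to 0.819% and 0% to 0.414% in choroid plexus cells.

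In PVMs the Cd40 level was 10.6, 18.7, 13.8 and 13.1 CPM in Juvenile, 0, 10.7 and 8.79 CPM in Adult, 18.0 and 18.4 CPM in Aged and 66.9 and 57.6 CPM in EAE. The EAE libraries, with 62 and 55 UMIs, lay above all others, and the Adult libraries, with 0, 6 and 5 UMIs, lay lowest but for 1 Juvenile value. The mean rose from 4.87 ± 6.89 CPM (SD, n = 2) to 62.3 ± 6.59 CPM (SD, n = 2), a log2 fold change of 2.98 ± 0.37 (SE, edgeR adjusted p = 3.31e-06). The thinned share of PVMs with a UMI was 0%, 2.55% and 0% in Adult and 4.48% and 7.11% in EAE. PVMs of the groups also lay in different clusters, one led by Ccl8 with MHC class II genes (384 EAE and 1 Adult cells), one by the stress and immediate early genes Atf3, Dnajb1 and Fos (284 Adult and 1 EAE cells), one by Retnla and Ednrb (438 Juvenile cells) and one by Cd209a and Cd209b (285 Aged cells). A further cluster led by Cxcl13, Cxcl2, Cd74 and H2-Ab1 (127 Aged, 40 Adult, 3 Juvenile and 5 EAE cells) got no name from the markers, so its cells are not in the PVM sums of any group. The part of this in the PVM differences was not tested. In Micro the level was low in every group, at 2.81, 0.948, 2.64 and 4.10 CPM in Juvenile, 0.782, 5.08 and 2.93 CPM in Adult, 3.68 and 4.23 CPM in Aged and 7.14 and 8.46 CPM in EAE. The EAE libraries (32 and 41 UMIs) lay above all others, and the difference from Adult (1, 3 and 2 UMIs) was 1.91 ± 0.62 on the log2 scale (SE, edgeR adjusted p = 0.0347). That Micro call was lost under 5 of 19 settings, among them without Adult library 1 (edgeR adjusted p = 0.24), without EAE library 1 (0.081) and without EAE library 2 (0.138), whereas the EC call held in 21 of 21 and the PVM call in 20 of 20. A setting in which a member did not pass the filter is not among these, as for Cd40 of PVMs and Micro in cells thinned to 1000 UMIs, where it could not be tested.

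Cd86, a ligand of CD28 and CTLA-4, was carried by Micro and PVMs in every group, and no difference between EAE and Adult was called in either. Micro levels were 207, 206, 272 and 276 CPM in Juvenile, 291, 354 and 266 CPM in Adult, 322 and 320 CPM in Aged and 358 and 335 CPM in EAE. The Adult range reached from below the highest Juvenile value to nearly the highest EAE value. The EAE difference was 0.41 ± 0.17 on the log2 scale and was not called (edgeR adjusted p = 0.0808). PVM levels were 485, 394, 541 and 507 CPM in Juvenile, 297, 416 and 443 CPM in Adult, 310 and 340 CPM in Aged and 363 and 429 CPM in EAE, with the Aged values below those of Juvenile and EAE, the Adult range overlapping the other 3 groups, and an EAE difference of 0.19 ± 0.18 (SE, log2, edgeR adjusted p = 0.569). The thinned share of cells with a UMI was 27.2%, 28.1% and 25.6% in Adult Micro and 29.2% and 26.7% in EAE Micro, against 0.24% and 0.207% in EAE choroid plexus cells. In ECs Cd86 was at 0.492 to 5.36 CPM in Juvenile, 7.52, 3.68 and 4.18 CPM in Adult, 4.67 and 6.71 CPM in Aged and 7.95 and 7.56 CPM in EAE, and its EAE difference of 0.76 ± 0.59 was not called (SE, log2, edgeR adjusted p = 0.375). Choroid plexus cells had 8.59 and 5.80 CPM of Cd86 in the same EAE libraries, a range that holds the EC levels. They were deeper, so their CPM is not a like measure of background. In cells thinned to 1000 UMIs the mean share with a UMI was 0.742 ± 0.251% in EAE ECs. It was 0.223 ± 0.0232% in EAE choroid plexus cells (SD, n = 2 each). The part of free RNA in the EC level was not tested.

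Cd80, the other ligand of CD28 and CTLA-4, was lower than 25 CPM in Micro and PVMs of every library. Micro levels were 6.86, 4.42, 7.93 and 14.6 CPM in Juvenile, 10.2, 10.2 and 13.2 CPM in Adult, 23.9 and 20.6 CPM in Aged and 13.2 and 8.88 CPM in EAE. The Aged libraries were the highest, and the Adult and EAE libraries overlapped. The Aged difference was 1.05 ± 0.45 on the log2 scale and was not called (SE, edgeR adjusted p = 0.27, unadjusted p = 0.0363), and that in EAE was 0.20 ± 0.45 (SE, edgeR adjusted p = 0.786). PVM levels were 6.91 to 14.8 CPM in Juvenile, 7.41, 12.5 and 14.1 CPM in Adult, 24.6 and 23.5 CPM in Aged and 11.9 and 10.5 CPM in EAE, again with Aged highest and with an EAE difference of -0.011 ± 0.49 (SE, log2, edgeR adjusted p = 0.994). ECs held at most 1.32 CPM in any library, with 2 UMIs in all Adult ECs and 18 in EAE ECs, a ratio of 7.66 (95% counting interval 1.83 to 68.1). Choroid plexus cells held 0.764 and 0.351 CPM in the EAE libraries.

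Pdcd1lg2, which encodes PD-L2, was near absent from the resident types. ECs had 1 to 9 UMIs per library, a level of 0.127 to 0.954 CPM. Micro had none in 8 of the 11 libraries, with 1.37 CPM in Juvenile library 4 and 0.893 and 1.03 CPM in EAE. PVMs had 1 UMI over all 11 libraries, in EAE library 1. These UMIs were too few to pass the filter for a test between groups. A count of 0 allows up to 5.08 CPM in the shallowest Micro sum and up to 22.2 CPM in the PVMs of Adult library 1, so lower levels were not detectable there.

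**Figure D2:**
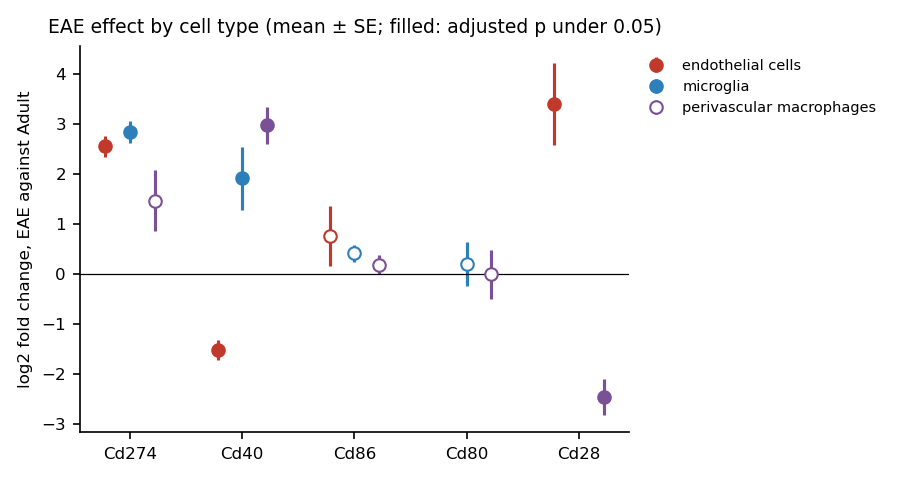
Log2 fold change of EAE against Adult (points) with its standard error (bars) for Cd274, Cd40, Cd86, Cd80 and Cd28 in EC, Micro and PVM. Filled points have an edgeR adjusted p under 0.05, and a member that did not pass the filter in a type has no point. Cd274 lies at 2.55 in EC and 2.84 in Micro, and Cd40 at -1.53 in EC but at 2.98 in PVM.

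The change in EAE was then compared between cell types, as an interaction in one model over the EC, Micro and PVM sums, where 7 members were tested. The Cd274 change did not differ detectably between ECs and Micro (EC minus Micro -0.31 ± 0.34, SE, log2, edgeR adjusted p = 0.614), between ECs and PVMs (0.98 ± 0.56; 0.382) or between Micro and PVMs (1.29; 0.353), which leaves differences of this size unresolved. For Cd40 the change in ECs lay below that in Micro by -3.46 ± 0.48 (SE, log2, edgeR adjusted p = 8.34e-08) and below that in PVMs by -4.77 ± 0.37 (5.61e-16), while Micro and PVMs did not differ detectably (-1.32 ± 0.81; 0.528). Members called were 2 for EC minus Micro (Cd40 and Cd80; 16.1% of all genes tested were called), 2 for EC minus PVM (Cd40 and Cd28; 6.14%) and 1 for Micro minus PVM (Cd28; 3.35%). Cd80 did not pass the filter in ECs alone, nor Cd28 in Micro alone. The part of Cd80 and Cd28 in these counts is therefore not read against those shares. The Cd80 difference (2.63 ± 0.94, SE, log2, edgeR adjusted p = 0.0428) rests on the 2 UMIs of Adult ECs and was called in 4 of 7 settings. The Cd40 differences were called in 7 of 7.

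Cd28, the activating receptor of T cells, was also read in PVMs. PVM levels were 23.3, 28.0, 23.0 and 31.5 CPM in Juvenile, 22.2, 71.4 and 70.3 CPM in Adult, 26.2 and 21.8 CPM in Aged and 11.9 and 8.38 CPM in EAE. Adult libraries 2 and 3, with 40 UMIs each, stood above all others, whereas Adult library 1, with 3 UMIs in 39 cells, lay among the Juvenile and Aged values. The EAE libraries, with 11 and 8 UMIs, were lowest, and the difference from Adult was -2.47 ± 0.35 on the log2 scale (SE, edgeR adjusted p = 2.18e-05). Without Adult libraries 2 and 3 the adjusted p was 0.587. The same 2 libraries carried the differences from Aged (-1.36 ± 0.33; adjusted p = 0.0377) and from Juvenile (-1.39 ± 0.29; adjusted p = 0.00391), which changed sign without them. They also carried the Cd28 differences between the EAE changes of the types (EC minus PVM 5.72 ± 0.73, adjusted p = 1.77e-08; Micro minus PVM 4.65 ± 0.95, adjusted p = 0.000800), with adjusted p of 0.454 and 0.669 without them. Adult Micro held 2 UMIs of Cd28, a ratio of EAE to Adult levels of 4.79 (95% counting interval 1.23 to 41.1).

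In EAE the 2 libraries held enough macrophages and dendritic cells to read all 5 ligands. Macrophages numbered 839 and 769, cDC2-like cells 126 and 106 and Ccr7 DCs, which express the migration receptor Ccr7 of mature dendritic cells, 35 and 43. The other 9 libraries held 5 to 38 macrophages and 6 to 26 dendritic cells each, so no test between groups was made for these types. Most macrophages outside EAE lay in a cluster led by Elane, Prtn3, Chi3l3 and Mpo, which include genes of granule proteins of immature myeloid cells (37 Juvenile, 19 Adult and 58 Aged cells). It held 137 EAE cells, while the other EAE macrophages lay in clusters led by H2-Eb1 and H2-Aa (405), by Plac8 and Chi3l3 (404), by Saa3 and Apoc2 (361) and by Inhba and Ly6i (301). Levels of macrophages in and outside EAE are therefore those of different clusters. Cell types were therefore compared within the EAE libraries, with the library as a block and all 10 members tested. There 4 members were called between PVMs and Micro (29.9% of all genes), 3 between macrophages and PVMs (40.1%), 6 between dendritic cells and macrophages (21.5%) and 9 between ECs and Micro (68.4%). The receptor-side genes passed the filter with T cells in the fit. The 9 included Cd28, Cd40lg, Ctla4, Icos and Pdcd1, at means of at most 2.66 CPM in ECs and 4.37 CPM in Micro. The 6 included Icos and Pdcd1, and the 4 included Cd28. Counts that hold these genes are not read against those shares.

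Among the myeloid types Cd274 was lowest in PVMs and highest in Ccr7 DCs. Its levels in EAE libraries 1 and 2 were 22.7 and 19.9 CPM in PVMs, 62.3 and 70.0 CPM in Micro, 122 and 136 CPM in macrophages, 51.2 and 70.2 CPM in cDC2 and 383 and 385 CPM in Ccr7 DCs. Micro and cDC2 overlapped, and the other types did not. PVMs were lower than Micro by a log2 fold change of -1.54 ± 0.21 (SE, edgeR adjusted p = 9.49e-12), and macrophages were higher than PVMs by 2.88 ± 0.18 (SE, edgeR adjusted p = 4.59e-53). Dendritic cells as a whole (107 and 143 CPM) did not differ detectably from macrophages (-0.16, edgeR adjusted p = 0.381). ECs were a little lower than Micro (-0.30 ± 0.09, SE, log2, edgeR adjusted p = 0.000966), within 56.9 to 70.0 CPM over both types. The levels in CPM, which are not scaled by TMM, differed by less than this.

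Cd40 was at 66.9 and 57.6 CPM in PVMs, 41.4 and 54.2 CPM in macrophages, 41.2 and 53.4 CPM in cDC2 and 272 and 411 CPM in Ccr7 DCs of EAE. Micro, at 7.14 and 8.46 CPM, and ECs, at 15.8 and 14.7 CPM, were below these. PVMs were above Micro by 3.08 ± 0.24 on the log2 scale (SE, edgeR adjusted p = 5.73e-36) and ECs above Micro by 0.77 ± 0.20 (0.00016). Macrophages and PVMs did not differ detectably (-0.10, edgeR adjusted p = 0.711), and dendritic cells as a whole were above macrophages by 1.05 ± 0.15 (SE; 4.22e-11). The cDC2 levels were like those of macrophages, so this difference lay in the Ccr7 DCs.

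The ligands of CD28 and of PD-1 were highest in Ccr7 DCs. These cells were named from markers such as Ccr7, Fscn1 and Ccl22, with the members left out of clustering and naming. Genes correlated with the members may still have drawn the type, so values and p-values of dendritic cells describe named clusters. Cd80 was at 40.2 and 47.2 CPM in macrophages, 58.7 and 53.4 CPM in cDC2 and 266 and 279 CPM in Ccr7 DCs, against 11.9 and 10.5 CPM in PVMs and 13.2 and 8.88 CPM in Micro. Macrophages exceeded PVMs by 2.24 ± 0.28 on the log2 scale (SE, edgeR adjusted p = 2.24e-14), and dendritic cells exceeded macrophages by 1.07 ± 0.16 (1.29e-10). Cd86 was spread more evenly, at 273 and 276 CPM in macrophages, 406 and 412 CPM in cDC2 and 599.8 and 451 CPM in Ccr7 DCs, with dendritic cells above macrophages by 0.53 ± 0.11 (SE, log2, edgeR adjusted p = 9.55e-06) and PVMs above Micro by 0.29 ± 0.11 (0.0275). Outside EAE, where the sums held 1 to 48 UMIs of the gene, Cd86 was at 59.6 to 185 CPM in macrophages and 23.8 to 303 CPM in dendritic cells, below the EAE levels of each type. This was not tested, and for macrophages it sets different clusters side by side. The dendritic cell calls of Cd80 and Cd86 were lost when cells were named one by one from marker sums (adjusted p = 0.253 and 0.655).

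Pdcd1lg2 was at 5.95 and 6.61 CPM in macrophages (29 and 30 UMIs), 14.98 and 19.8 CPM in cDC2 and 92.7 and 152 CPM in Ccr7 DCs of EAE. The 3 types did not overlap, and dendritic cells were above macrophages by 2.503 ± 0.31 on the log2 scale (SE, edgeR adjusted p = 4.11e-14). Against the 1 UMI of PVMs, the 59 UMIs of macrophages gave a ratio of levels of 11.8 (95% counting interval 2.04 to 473, edgeR adjusted p = 0.000612). In the 9 libraries without EAE macrophages and dendritic cells held 0 UMIs of the gene. Over those libraries together this allows up to 4.34 CPM in macrophages and 3.95 CPM in dendritic cells, below the EAE levels of each type, and no test was made. For macrophages the limit lies near the EAE levels, which rest on 29 and 30 UMIs, and different clusters are set side by side. Receptor genes were found in the Ccr7 DCs as well, with Pdcd1 at 61.8 and 55.8 CPM. Cd28 was at 0 in both libraries, which allows up to 18.5 and 15.2 CPM there. Pdcd1 over all dendritic cells was at 13.5 and 15.3 CPM, above macrophages by 3.73 ± 0.55 (SE, log2, edgeR adjusted p = 2.14e-10). In cDC2, which were most of these cells, it was at 3.05 to 3.75 CPM, against 0.820 to 1.10 CPM in macrophages.

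**Figure D3:**
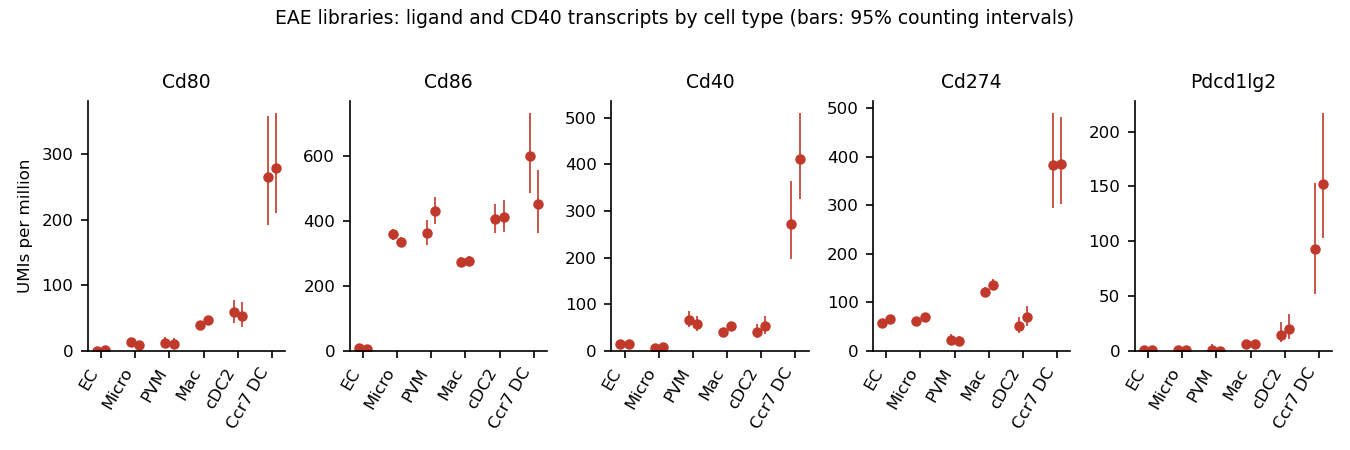
Levels of the 5 ligand-side genes in CPM in EC, Micro, PVM, macrophages (Mac), cDC2 and Ccr7 DCs of the 2 EAE libraries, 1 point per library with its 95% counting interval. Each of the 5 is highest in the Ccr7 DCs, which are 35 and 43 cells, and Cd274 there is 383 and 385 CPM.

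On the T cell side, Ctla4 was the member called higher in EAE than in Adult, and differences of the other receptor-side genes were not resolved. T cells numbered 12, 39 and 38 in Juvenile libraries 1, 3 and 4 (library 2 held 5 and was left out), 28, 26 and 19 in the Adult libraries, 155 and 118 in Aged and 780 and 708 in EAE. All 5 receptor-side genes were tested. Against Adult, edgeR called 1 in EAE (21.3% of all genes tested), none in Aged (2.22%; 2 at an unadjusted p under 0.05 and 0 by DESeq2) and none in Juvenile (4.22%; 1 at an unadjusted p under 0.05 and 1 by DESeq2). Between EAE and Aged 2 were called (22.4% of all genes), between EAE and Juvenile 4 (14.1%) and between Aged and Juvenile 2 (10.5%). Ctla4 passed the filter through the groups where it was higher than in Adult. Its part in these counts is therefore not read against those shares. The T cells of the groups lay in different clusters, which bears on every value below. A cluster with Dapl1, Ccr7 and Tcf7 among its leading genes, of which Ccr7 and Tcf7 are known from naive T cells, held 64 Juvenile, 26 Adult, 6 Aged and 30 EAE cells, and a cluster led by Eomes, Ccl4 and Xcl1 held 182 Aged cells but 0 Juvenile, 24 Adult and 14 EAE cells. The part of this composition in the differences below was not tested.

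Ctla4 encodes the receptor that restrains T cells and competes with CD28 for the same ligands. Its level was 50.1, 42.7 and 122 CPM in Juvenile, 54.4, 39.7 and 55.8 CPM in Adult, 151 and 116 CPM in Aged and 219 and 201 CPM in EAE. EAE was above all other groups, and Juvenile library 4 reached into the Aged range. The Adult mean was 51.1 ± 4.67 CPM and the EAE mean 209.8 ± 12.7 CPM (SD, n = 2 each), a log2 fold change of 2.03 ± 0.35 (SE, edgeR adjusted p = 0.000335) that was called in 17 of 17 settings. The Adult libraries held 7, 4 and 3 UMIs of the gene. The difference of Aged from Adult was 1.43 ± 0.41 and was not called (SE, log2, edgeR adjusted p = 0.0696). EAE exceeded Juvenile by 1.45 ± 0.32 (SE, log2; 0.00351) and Aged by 0.59 ± 0.20 (SE, log2, edgeR adjusted p = 0.0388), the latter in 10 of 17 settings. The thinned share of T cells with a UMI was 7.41%, 3.85% and 0% in Adult and 15.2% and 13.2% in EAE, against 0% in choroid plexus cells of both EAE libraries.

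Cd28 was carried by T cells of every group. Levels were 276, 316 and 337 CPM in Juvenile, 582, 397 and 632 CPM in Adult, 892 and 731 CPM in Aged and 578 and 579 CPM in EAE. The Juvenile libraries were lowest and the Aged libraries highest, and EAE lay inside the Adult range. EAE and Adult did not differ detectably (0.07 ± 0.20, SE, log2, edgeR adjusted p = 0.833). Aged T cells exceeded Juvenile ones by 1.38 ± 0.21 (SE, log2, edgeR adjusted p = 0.000203, called in 17 of 17 settings), EAE exceeded Juvenile by 0.84 ± 0.21 (0.00729), and EAE lay below Aged by -0.54 ± 0.18 (0.0340, called in 10 of 17). Aged against Adult (0.61 ± 0.20; 0.113) and Juvenile against Adult (-0.77 ± 0.23; 0.0613) were not called. The thinned share with a UMI was 44.4%, 34.6% and 44.4% in Adult and 46.0% and 44.9% in EAE.

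Icos, a receptor that is raised on activated T cells, spread widely among the small Adult sums. Levels were 100.3, 93.9 and 306 CPM in Juvenile, 155, 209 and 911 CPM in Adult, 598 and 411 CPM in Aged and 605 and 620 CPM in EAE. Adult library 3, with 49 UMIs in 19 cells, exceeded every other library, so the Adult and EAE groups overlapped. The mean thinned share of T cells with an Icos UMI was 21.4 ± 9.32% in Adult and 43.5 ± 0.099% in EAE (SD, n = 2 each), which was not tested. The EAE difference from Adult was 0.92 ± 0.45 and was not called (SE, log2, edgeR adjusted p = 0.186), while that from Juvenile, 1.76 ± 0.48 (0.0430), was called in 9 of 17 settings. Pdcd1, the PD-1 receptor, was at 150.4, 59.7 and 51.0 CPM in Juvenile, 62.1, 209 and 93.0 CPM in Adult, 171 and 168 CPM in Aged and 150.0 and 141 CPM in EAE. The Adult range enclosed the Aged and EAE values and overlapped the Juvenile range, and EAE differed from Adult by 0.23 without a call (log2, edgeR adjusted p = 0.632). Aged exceeded Juvenile by 1.26 ± 0.39 (SE, log2, edgeR adjusted p = 0.0401, called in 10 of 17 settings).

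Cd40lg, which encodes the partner of CD40, was at 50.1, 42.7 and 61.2 CPM in Juvenile, 77.7, 59.6 and 223 CPM in Adult, 138 and 94.4 CPM in Aged and 129.9 and 130.2 CPM in EAE. The Adult range enclosed both the Aged and the EAE values. EAE exceeded Juvenile by 1.31 ± 0.35 (SE, log2, edgeR adjusted p = 0.0145) and did not differ detectably from Adult (0.34; 0.416). The thinned share of T cells with a Cd40lg UMI was 3.70%, 0% and 11.1% in Adult and 13.4% and 14.1% in EAE. These shares did not overlap and were not tested. T cells of EAE also held ligand-side UMIs, with Cd274 at 34.4 and 39.1 CPM, Pdcd1lg2 at 42.1 and 32.2 CPM, Cd86 at 42.4 and 38.8 CPM, Cd80 at 17.4 and 16.1 CPM and Cd40 at 0.334 and 1.10 CPM. Choroid plexus cells of the same libraries held Cd274 at 3.44 and 4.22 CPM, Pdcd1lg2 at 0.191 and 0.703 CPM, Cd86 at 8.59 and 5.80 CPM, Cd80 at 0.764 and 0.351 CPM and Cd40 at 1.72 and 2.11 CPM. The T cell level of Cd40 was thus at or below this background and those of the other 4 above it, and the part of RNA from myeloid cells in them was not tested.

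**Figure D4:**
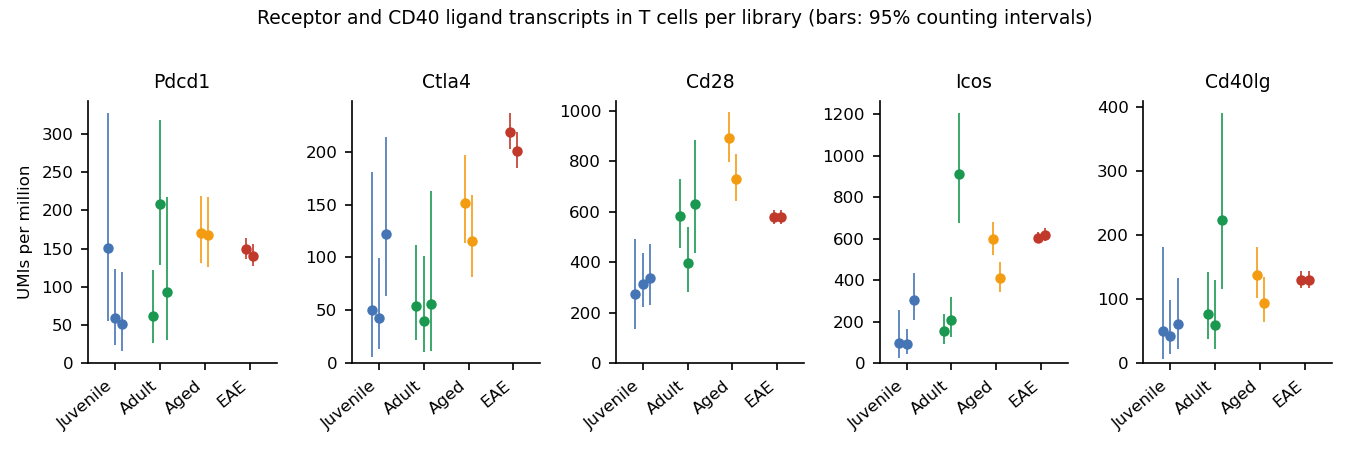
Levels of Ctla4, Cd28, Icos, Pdcd1 and Cd40lg in CPM in T cells of each library with at least 10 T cells, by group, with 95% counting intervals. Ctla4 is highest in the EAE libraries (219 and 201 CPM), and for Icos and Cd40lg 1 Adult library of 19 cells reaches above them.

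Subsets of the EAE T cells were read by the markers with a UMI in each cell, and no test was made between them. Cells with Foxp3, the factor of regulatory T cells, numbered 13 and 12 and held Ctla4 at 841 and 615 CPM. Of the cells without Foxp3, those with Cd4 alone (320 and 293) held 196 and 211 CPM and those with Cd8a alone (128 and 109) held 203 and 105 CPM of Ctla4. Cd40lg was at 151 and 168 CPM in Cd4 cells, 5.54 and 14.96 CPM in Cd8a cells and 0 and 8.09 CPM in Foxp3 cells, with no overlap between the Cd4 cells and the others. Pdcd1 (151 and 132 CPM in Cd4 cells, 194 and 209 CPM in Cd8a cells), Cd28 (548 and 572 CPM, 661 and 558 CPM) and Icos (586 and 632 CPM, 508 and 438 CPM) differed less between them. A UMI of none of the 3 markers was found in 314 and 291 cells.

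T cell clusters of EAE differed further in the members. A cluster led by Il17a, Cd163l1 and Tcrg-C1, genes of interleukin 17 and gamma delta T cells (48 and 47 cells), held Icos at 1296 and 1138 CPM and Cd28 at 121 and 196 CPM. A cluster led by Folr4 and Ikzf2 (100 and 112 cells) held Cd28 at 981 and 898 CPM, Ctla4 at 496 and 352 CPM and Cd40lg at 235 and 245 CPM. The cluster led by Ccl1, Tnfsf11 and Csf2 (226 and 197 cells) held Pdcd1 at 204 and 178 CPM, and that led by Rgs10 (172 and 162 cells) held it at 39.8 and 25.1 CPM. The Dapl1 and Ccr7 cluster, with 17 and 13 EAE cells, had Icos at 20.9 and 125 CPM and Ctla4 at 20.9 and 24.9 CPM. These clusters were made from the same cells, so the values describe them and were not tested.

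Receptor genes were also counted in types that are not T cells, beside the T cell gene Cd3e. ECs of EAE held Cd28 at 3.24 and 1.42 CPM, Icos at 3.14 and 2.17 CPM and Ctla4 at 2.03 and 1.13 CPM. Choroid plexus cells of the same libraries held Cd28 at 2.10 and 2.46 CPM, Icos at 3.06 and 2.64 CPM and Ctla4 at 1.53 and 0.879 CPM. The EC levels thus overlapped those of choroid plexus cells, which were deeper. In cells thinned to 1000 UMIs the mean EAE share with a Cd28 UMI was 0.247% in ECs and 0.534% in choroid plexus cells. For Icos these shares were 0.234% and 0.223%, and for Ctla4 0.176% and 0%. Cd28 (3.41 ± 0.82, SE, log2, edgeR adjusted p = 0.00949) and Icos (2.95 ± 0.55; 0.00223) were called against Adult ECs, with Cd28 lost without Adult libraries 2 and 3. Cd3e, a part of the T cell receptor complex, moved with them, from 3, 5 and 1 UMIs in Adult ECs to 42 and 37 in EAE ECs. The part of T cell RNA in these EC levels was not tested.

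Micro held Pdcd1 at 0.948 to 2.18 CPM in Juvenile, 0.782, 1.69 and 0 CPM in Adult, 9.21 and 4.23 CPM in Aged and 3.12 and 4.75 CPM in EAE. The Aged and EAE libraries lay above all others and overlapped each other. Choroid plexus cells held 0.707 and 0.318 CPM in Aged and 0.764 and 1.05 CPM in EAE, below the Micro of the same libraries. They were deeper (median 11140 UMIs in EAE, against 3096 in Micro), so their CPM is not a like measure of background. The part of free RNA in the Micro level was not tested. Micro held 0 UMIs of Cd3e in each Juvenile library, 1, 0 and 0 in Adult, 2 and 2 in Aged and 12 and 18 in EAE. The Aged difference of Pdcd1 was not called (edgeR adjusted p = 0.0758). The EAE to Adult ratio of Pdcd1 in Micro was 5.07 (95% counting interval 1.31 to 43.4, edgeR adjusted p = 0.0404), and it was called in 11 of 19 settings.

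Icos in Micro was highest in the Juvenile libraries. Juvenile Micro held it at 17.8, 11.7, 9.06 and 15.02 CPM (57, 37, 24 and 33 UMIs), Adult Micro at 1.56, 5.08 and 1.46 CPM, Aged Micro at 3.68 and 3.02 CPM and EAE Micro at 3.79 and 4.95 CPM. The Juvenile libraries lay above all others. Juvenile exceeded Adult by a log2 fold change of 2.44 ± 0.48 (SE, edgeR adjusted p = 0.00198), and the EAE difference of 1.09 was not called (edgeR adjusted p = 0.186). Choroid plexus cells of the Juvenile libraries held Icos at 0 to 0.478 CPM, and Juvenile Micro held 0 UMIs of Cd3e in all 4 libraries, so Cd3e did not move with this level.

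Within ECs the level was read by vessel segment, over clusters of Adult and EAE ECs named from fixed markers. No test was made between the segments. Cd274 in EAE was at 103 and 128 CPM in arterial ECs, 38.6 and 43.2 CPM in capillary ECs, 30.2 and 34.6 CPM in venous ECs and 73.2 and 82.6 CPM in the cells of clusters with no segment name. In Adult libraries 2 and 3 it was at 8.80 and 17.4 CPM in arterial, 12.5 and 12.8 CPM in capillary and 13.5 and 7.99 CPM in venous ECs, which overlapped. Most EAE cells named arterial (856) came from a cluster led by Cxcl9, Islr2, Igfbp3 and Stmn2 with Cxcl10 among its first 10 genes, so its leading genes include interferon-induced chemokines. Cd40 was at 64.0 and 65.6 CPM in capillary, 43.4 and 42.2 CPM in arterial and 53.8 and 53.3 CPM in venous ECs of Adult libraries 2 and 3. In EAE these were 23.2 and 21.3 CPM, 9.11 and 14.8 CPM and 9.21 and 9.97 CPM, so that every segment was lower in EAE. EAE and Adult ECs lay almost wholly in different clusters, and Adult library 1 had 741 ECs in an unnamed one.

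**Figure D5:**
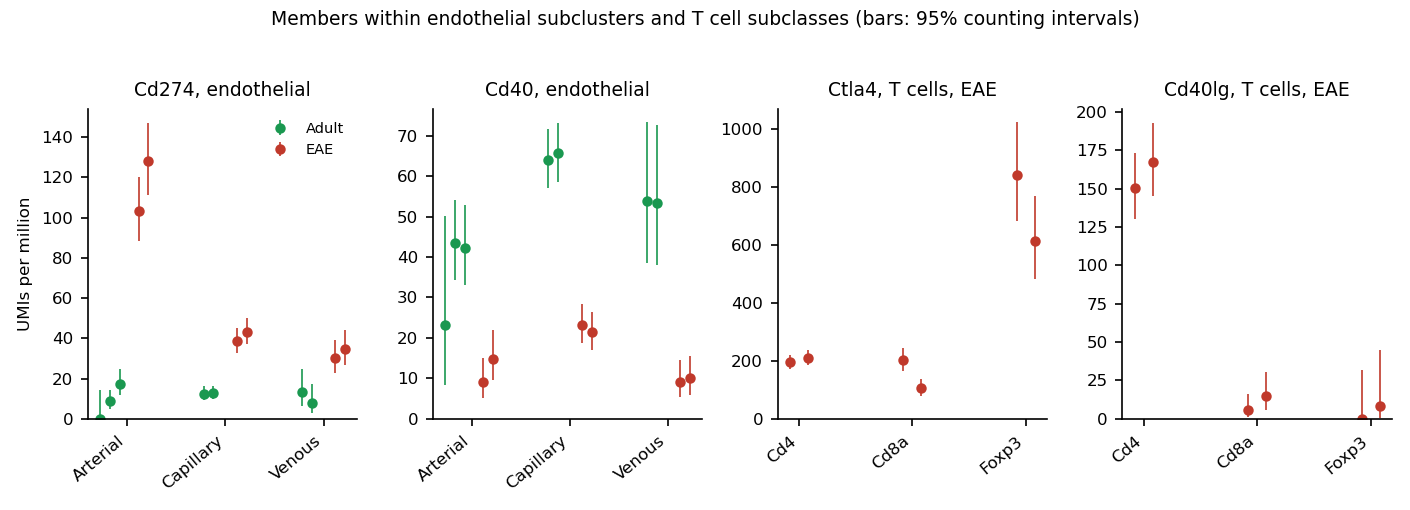
Levels in CPM of Cd274 and Cd40 in arterial, capillary and venous ECs of Adult and EAE libraries with at least 50 such cells, and of Ctla4 and Cd40lg in T cells of EAE with a Cd4, Cd8a or Foxp3 UMI. Bars are 95% counting intervals. Cd274 in EAE is highest in arterial ECs (103 and 128 CPM), and Cd40lg is highest in the Cd4 cells (151 and 168 CPM).

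The members were set beside 63 genes of 5 lists of related pathways, in EAE against Adult. Over all genes tested, 2129 rose and 1589 fell of 13658 in ECs (27.2% called), 1484 rose and 1438 fell of 11171 in Micro (26.2%), 601 rose and 477 fell of 7241 in PVMs (14.9%) and 239 rose and 347 fell of 2747 in T cells (21.3%). The median log2 fold change over all genes was 0.012 in ECs, -0.012 in Micro, -0.0091 in PVMs and -0.0046 in T cells. Of the interferon gamma axis, 5 of 11 genes tested rose and none fell in ECs (median 0.61), 8 of 11 rose in Micro (median 1.39), 4 of 10 rose in PVMs (median 0.59) and 1 of 8 rose in T cells. Of CD40 signalling genes, 5 of 12 rose in ECs (Birc2, Birc3, Relb, Tnfaip3 and Traf1; median 0.58) and Traf5 fell, while in Micro 1 of 11 fell and none rose, in PVMs 1 of 8 fell and none rose, and in T cells none of 5 was called. The genes that rose in ECs are intermediates and targets of NF-kappaB signalling that many receptors share. Of TNF family costimulation genes, 3 of 8 rose (Tnfrsf4, Tnfrsf9 and Tnfsf8) and 1 fell in ECs (median 1.05). In Micro 2 of 3 rose and 1 fell, in PVMs 2 of 3 fell, and in T cells 4 of 5 rose and 1 fell (median 1.97). Of other checkpoint pairs, 5 of 11 rose (Cd2, Cd200, Havcr2, Pvr and Nectin2) and 1 fell in ECs (median 0.74). In Micro 5 of 12 rose and 1 fell, in PVMs 2 of 10 rose and 2 fell, and in T cells none of 6 was called. Tnfrsf4 was also high in EAE T cells, and Cd3e rose in EAE ECs. The part of leukocyte RNA in the EC counts of these lists was not tested. Of B7-CD28 family relatives, 1 of 3 fell in ECs, 1 of 4 fell in Micro, none of 2 was called in PVMs and none of 1 in T cells.

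The genes named below were among those with the largest changes of these lists in EAE and with groups that did not overlap. Tnfsf8, which encodes CD30 ligand, was at 0.289, 0.954 and 2.56 CPM in Adult ECs and 76.0 and 82.7 CPM in EAE ECs, a log2 fold change of 5.96 ± 0.66 (SE, edgeR adjusted p = 0.000493). Birc3, an NF-kappaB target that acts below TNF receptors, rose in ECs from 22.3, 29.0 and 33.0 CPM to 76.3 and 85.1 CPM (1.74 ± 0.15; 7.00e-06). The chemokine Cxcl9 was at 0 to 0.135 CPM in Adult ECs and at 4.72 and 37.8 CPM in EAE ECs (adjusted p = 0.0428), a call lost in 6 settings. Ceacam1, an adhesion and inhibitory receptor, fell in ECs from 181, 131 and 123 CPM to 76.6 and 75.1 CPM (-0.80 ± 0.14; 0.00139), and Cd27 (-0.67) and Vsir (-0.52), which encode a costimulatory receptor and the checkpoint molecule VISTA, also fell. In Micro the interferon-induced Gbp2 rose from 10.2, 10.2 and 10.2 CPM to 311.1 and 310.7 CPM (5.13 ± 0.18; 1.64e-10). Cxcl9 rose by 7.34 in Micro, while Cd27 (-1.53), Nfkb1 (-0.69) and Sirpa (-0.48) fell. PVMs showed rises of Gbp2 (3.23) and the MHC class II regulator Ciita (3.70) and falls of Tnfsf9 (-1.70), Pvr (-1.52) and Cd27 (-1.34). In T cells Tnfrsf4, the costimulatory receptor OX40, rose from 54.4, 0 and 55.8 CPM to 490.1 and 473 CPM (3.71 ± 0.35; 6.11e-07), Tnfsf8 (2.45) and Gbp2 (1.99) rose, and Cd27 (-1.89 ± 0.25; 1.97e-05) fell.

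The genes most like 3 of the ligand-side members were looked up over 96 sums of at least 50 cells in 18 cell types, by Pearson's r of log2(CPM + 1) among 12635 genes. Sums of a library share its depth and its free RNA, so r is a description. For Cd274 these were Dedd2 (r = 0.77), H2-Q6 (0.75) and H2-Ab1 (0.72), the latter pair being MHC genes. For Cd40 they were Trim25 (0.76), BC028528 (0.70) and Nampt (0.68). For Cd86 they were Tnfaip8l2 (0.92), Ly86 (0.91) and Laptm5 (0.91), which are genes of myeloid or haematopoietic cells.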

How the data were processed

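Counts are the whole-number UMI counts per gene and cell that the authors deposited, 1 table per library (10x Chromium 3′ chemistry). Per the labels they were made with bcl2fastq 2.19.1.403, UMI-tools 0.5.3, STAR 2.5.3a and featureCounts 1.6.1 on mm10, so a read near a gene's 3′ end stands for the gene and start sites are not resolved. A cell was kept if it had above 500 and below 6000 genes, with less than 25% of its UMIs mitochondrial. With scanpy 1.11.5 (Python 3.11.15), 2000 variable genes, 30 components and 20 neighbours gave Leiden clusters at resolution 1 (1.5 for leukocytes), named from marker lists. EC and T cell clusters with at least 3 shared macrophage genes among the leading 10, and a PVM cluster of choroid plexus genes, were set aside. Cells that Scrublet called doublets (1.62%) were kept in the first analysis. UMIs were summed per library and cell type of at least 10 cells, with Adult 2 and 3 summed, giving 10 units. Groups were compared with edgeR 4.0.16 (R 4.3.3; TMM, filterByExpr, quasi-likelihood), and means ± SD are over units. The EAE cell types were compared with the library as a block. Statistics were tested on simulated data. Intervals are exact, at 95%, for counting error only. A limit for 0 UMIs is 3 counts.

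The members and lists were chosen with earlier results of these data known. Named pathway genes are, per cell type, up to 3 in each direction with the largest change among those called in EAE against Adult, with 20 CPM or more in the group of the higher level and no overlap of units. Some items that this rule gives are not reported here. Alternatives were DESeq2 1.42.0, its size factors, no filter, all 11 libraries, 8 units, a replicate block, each unit left out, no doublets, names from marker sums, resolution 0.5, thinning and, chosen after seeing the data, keeping the clusters set aside. The labels share replicate numbers, but same-numbered libraries did not deviate together, so no block was used between groups.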

Additional observations from a re-analysis of the deposited data

Results flagged for a closer look

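The change in EAE against Adult was called different between cell types, by the interaction test, for 3 members. Of these, Cd80 in ECs and Cd28 in Micro did not pass the filter when the type was tested alone. For Cd40 the EC change lay below that of Micro by -3.46 and below that of PVMs by -4.77 on the log2 scale, with the gene lower in both EAE libraries of ECs and higher in both of PVMs. For Cd80 the EC change exceeded that of Micro by 2.63, a value that rests on 2 UMIs in Adult ECs. For Cd28 the EC change exceeded that of PVMs by 5.72 and the Micro change that of PVMs by 4.65, both of which lost their call without Adult libraries 2 and 3 (adjusted p = 0.454 and 0.669). Adult ECs held 4 UMIs of Cd28 and Adult Micro 2, the EAE level in ECs (3.24 and 1.42 CPM) was at that of choroid plexus cells (2.10 and 2.46 CPM), and Cd3e went from 3, 5 and 1 UMIs in Adult ECs to 42 and 37 in EAE ECs.

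Cd274 was also carried by a cell type outside these comparisons. Neutrophils of the EAE libraries (170 and 160 cells) held it at 71.3 and 94.5 CPM. Outside EAE 108 neutrophils, of which 47 and 43 came from Aged libraries 1 and 2 and 0 from Juvenile libraries 1 and 2, held 4 UMIs, a pooled level of 9.06 CPM with a 95% counting interval up to 23.2 CPM. Of the EAE neutrophils 285 lay in a cluster led by Retnlg and S100a9 and 45 in one led by Ngp and Camp, against 47 and 43 of the Aged ones, so the levels are of different mixes of clusters.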

How the results depend on the processing

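Of the recomputed counts of members called and shares of cells, 260 kept to their first value and 97 moved from it (a count by over 1.5 times, a share by over 1 SD). Of single member or pathway results, 1123 kept direction and side of the threshold, 132 lost their call, 9 gained one and 14 changed sign. Under no filter, calls were 7 (EC EAE), 1 (EC Aged), 5 (Micro EAE), 1 (Micro Aged), 4 (T EAE against Adult), 1 (T Aged against Adult), 8 (T EAE against Juvenile), 4 (T Aged against Juvenile) and 5 (EC against Micro). With DESeq2 they were 1 (Micro EAE), 0 (PVM Aged and PVM Juvenile), 1 (T Juvenile against Adult, EAE against Aged, Aged against Juvenile) and 5 (Mac against PVM, also 5 with its size factors and with marker sums). Marker sums gave 1 (Micro EAE, PVM Juvenile, T EAE against Aged) and 2 (T EAE against Juvenile). Thinned cells gave 2 (EC EAE), 1 (Micro EAE) and 0 (PVM in all comparisons). With all 11 libraries, 1 was called for T EAE against Aged and Aged against Juvenile. PVM Aged fell to 0 and PVM Juvenile to 1 with 8 units and with resolution 0.5, and PVM Juvenile to 1 without doublets and with the choroid plexus cluster kept.

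Same-numbered libraries did not deviate together (r -0.15 to 0.22 in EC, -0.13 to 0.15 in Micro). The replicate block gave 1 call in Micro Aged, 0 in PVM Aged, 1 in PVM Juvenile and, in T cells, 2 (EAE against Adult), 1 (Aged against Adult), 1 (Juvenile against Adult) and 0 (EAE against Aged), against 0, 1, 2, 1, 0, 0 and 2 without it.

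Leaving out each unit in turn gave 3 to 5 calls (EC EAE), 0 to 0 (EC Aged, Micro Aged), 2 to 3 (EC and Micro Juvenile), 1 to 3 (Micro EAE), 1 to 2 (PVM EAE), 0 to 1 (PVM Aged), 0 to 2 (PVM Juvenile), 1 to 2 (T EAE against Adult), 0 to 1 (T Aged and Juvenile against Adult), 0 to 3 (T EAE against Aged), 1 to 6 (T EAE against Juvenile), 1 to 5 (T Aged against Juvenile), 1 to 2 (EC minus Micro and EC minus PVM) and 0 to 1 (Micro minus PVM).

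Values that changed sign were Cd80 in Micro EAE (-0.041 thinned, -0.078 to 0.50 leaving out each unit, lowest without EAE 1), Cd80 in PVM EAE (0.017 with no filter, 0.044 with DESeq2, -0.080 to 0.64 leaving out each unit, above 0 without Adult 2 and 3, either Aged library or EAE 2), Cd28 in PVM Aged (-1.50 to 0.073), Cd274 in PVM Juvenile (-5.42 to 1.68) and Cd28 in PVM Juvenile (-1.54 to 0.024), each of these 3 without Adult 2 and 3, Cd28 (-0.24) and Cd40lg (-0.048) in T cells of EAE with marker sums, and Pdcd1 in T cells of EAE (-0.18 to 1.28, below 0 without Adult 1). The cause was not tested.

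EAE shares of cells with a UMI depend on depth by construction. From 1000 to 1500 UMIs and to unthinned cells they were 4.84%, 8.15% and 13.6% (Cd274, EC), 1.83%, 2.56% and 4.51% (Cd40, EC), 27.9%, 40.2% and 59.8% (Cd86, Micro), 5.79%, 9.09% and 20.9% (Cd40, PVM), 45.5%, 56.0% and 77.7% (Cd28, T), 43.5%, 52.9% and 74.2% (Icos, T), 14.2%, 19.6% and 33.5% (Ctla4, T) and 9.68%, 12.3% and 23.2% (Pdcd1, T). Thinning left out 16.8% of Adult Micro. Depth limits Pdcd1lg2 in every resident type, and the Adult T cells (19 to 28 per library) limit each T cell comparison.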

Other observations

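B cells carried Cd40 and Cd274 in libraries of every group. In the sums of at least 10 B cells Cd40 was at 28.4 and 13.4 CPM in Juvenile, 81.9, 41.2 and 18.8 CPM in Adult, 73.1 and 51.3 CPM in Aged and 24.6 and 39.2 CPM in EAE, with the Aged values above those of Juvenile and EAE and the Adult range across all of them but the lowest Juvenile value. Cd274 in B cells was at 5.69 and 26.7 CPM in Juvenile, 11.7, 109.8 and 100.3 CPM in Adult, 24.4 and 61.5 CPM in Aged and 55.4 and 44.9 CPM in EAE, so that the highest values were those of Adult libraries 2 and 3. Cd86 in B cells was at 58.5, 18.3 and 50.2 CPM in Adult and at 135 and 72.9 CPM in EAE. These values were not tested.

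Mural cells, which wrap the endothelium, held Cd274 at 4.13, 0 and 0 CPM in Adult (2, 0 and 0 UMIs) and at 18.1 and 13.3 CPM in EAE (5 and 4 UMIs). Their Cd40 was at 14.5, 0 and 4.41 CPM in Adult and 10.8 and 9.96 CPM in EAE, with overlap. Cd86, which macrophages and microglia carry, moved with Cd274 in mural cells, at 20.7, 4.70 and 0 CPM in Adult and 47.0 and 33.2 CPM in EAE, and its part was not tested. None of these was tested between groups.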
